A study of Arabidopsis thaliana with 9 samples.

Results

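The glutathione S-transferase family was taken as the gene names of the tau, phi, theta, lambda and zeta classes in the deposited expression table of Arabidopsis thaliana, without GSTF12, which is not analysed here. That gave 42 genes of 25320 in the table: 26 tau, 9 phi, 3 lambda, 3 theta and 1 zeta gene. Of these, 20 lie on chromosome 1, 11 on chromosome 2, 4 on chromosome 3, 1 on chromosome 4 and 6 on chromosome 5. Members whose starts lie at most 20 kb from the next form 11 tandem runs, which hold 30 of the 42 genes.

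Glutathione S-transferases are soluble enzymes that join the thiol of glutathione to reactive or foreign molecules, and some of them reduce peroxides or exchange thiols instead. Plants hold them in classes: the large, plant-specific tau (GSTU) and phi (GSTF) classes take most detoxification reactions, theta (GSTT) enzymes act mainly as peroxidases, lambda (GSTL) proteins carry a catalytic cysteine and transfer thiols, and zeta (GSTZ) enzymes take part in tyrosine breakdown. Many tau and phi genes lie in tandem runs and are known as stress-responsive, with TGA-type bZIP factors among their activators.

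RNA was sequenced from stems and leaves of wild-type (WT) seedlings, 2 weeks old and grown in soil, in 9 libraries. The 3 control libraries (0 cycles, day 0) came from plants at room temperature or before stress, the 3 cold-once libraries (day 1) from plants after 1 cold cycle, and the 3 repeated-cold libraries (day 4) from plants after 4 cycles. A cycle was 6 h at 4 °C followed by 18 h at room temperature. A step of 6 h at 0 °C followed the cycles, and the labels do not say whether plants were sampled before or after it, so the cycles, that step, day and plant age cannot be told apart against control. The series asks about the memory of low temperature. Cycle number differs between every pair of groups. Both cold groups had at least 1 cycle, but they differ from each other in day as well.

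Depth was 17.98 to 21.49 M reads per library. Levels are FPKM, fragments per kilobase of gene scaled to library size. A library's median ratio to each gene's geometric mean is its median-of-ratios factor. It was 1.06 to 1.11 in control, 0.944 to 0.954 in cold once and 0.953 to 1.02 in repeated cold. The sums and folds of FPKM given below carry this difference between groups. A gene at 1 FPKM rested on about 33 reads, which gives 17.4% counting error. Summed leaf markers stood at 22150 to 27020 FPKM in control, 28420 to 32780 in cold once and 26810 to 33320 in repeated cold, but the 5 markers went both ways. RBCS1A, RBCS3B and RCA were above every control library in each cold library, while LHCB1.2 (1859 to 3280 FPKM in the cold libraries, against 4608 to 6982 in control) and LHCA1 (2604 to 3682, against 4622 to 5651) were below. The 5 root markers in the table summed to 25.4 to 63.1, 19.1 to 63.7 and 11.04 to 39.2 FPKM at 0, 1 and 4 cycles, mainly BGLU23, with CASP1, CASP2 and MYB36 at 0 to 0.386 FPKM in all libraries. NRT2.1 had 0.0661 to 0.236 FPKM in control, 1.06 to 1.49 in cold once and 0.620 to 2.24 in repeated cold. The 3 markers of the secondary wall of stem and vessels summed to 7.76 to 11.4, 8.10 to 10.3 and 5.16 to 9.72 FPKM in the same order. The 7 flower markers summed to 9.43 to 42.5 FPKM in control and 1.81 to 7.70 in cold once. In repeated cold they summed to 28.7 FPKM in replicate 2, against 0.974 and 1.39 in replicates 1 and 3. AP3 was at 0 in 1 cold-once and 2 repeated-cold libraries. The seed marker OLEO1 reached at most 0.060 FPKM. The part of these markers in the family's results was not tested.

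The tests across genes used limma on log2(FPKM + 1), with p-values adjusted by Benjamini and Hochberg over 17740 genes and an adjusted p under 0.05 as a call. A log2 change is a difference of group means on that scale, given with its standard error, and it understates the change of genes near or under 1 FPKM. Of the 42 members, 33 reached 1 FPKM in at least 3 libraries and were tested: 20 tau, 7 phi, 3 lambda and 3 theta genes. The other 9 (GSTF13, GSTF14, GSTU7, GSTU12, GSTU14, GSTU15, GSTU22, GSTU25 and GSTZ2) lay between 0 and 1.38 FPKM in every library. The highest of these values belonged to GSTU12 in cold once. In bulk tissue, fewer cells of a type and less RNA per cell cannot be told apart.

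The stretch of 250 bases before the annotated start is given for 4 of the members called in both comparisons with control, GSTU17 and GSTU27 (higher) and GSTF9 and GSTF10 (lower). It is also given for GSTU1, called lower in both, and GSTU6, called higher in repeated cold alone, which lie in 1 tandem run. The sequences are RefSeq's TAIR10.1, 5′ to 3′ on the gene's own strand. Capitals mark TGACG (the core that TGA factors bind), CCGAC (the CBF core) and ACGTG (the core of the abscisic acid response element), each searched on both strands. TGACG and ACGTG overlap where TGACGTG is written, and CACGTG, the G-box, holds ACGTG on both strands.
GSTU17, higher, chr1:3398359-3398608, minus strand: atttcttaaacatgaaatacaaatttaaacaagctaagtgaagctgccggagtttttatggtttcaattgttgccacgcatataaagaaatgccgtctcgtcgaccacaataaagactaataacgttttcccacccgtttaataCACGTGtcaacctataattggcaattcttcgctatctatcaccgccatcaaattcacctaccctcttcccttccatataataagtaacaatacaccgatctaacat
GSTU27, higher, chr3:15660520-15660769, plus strand: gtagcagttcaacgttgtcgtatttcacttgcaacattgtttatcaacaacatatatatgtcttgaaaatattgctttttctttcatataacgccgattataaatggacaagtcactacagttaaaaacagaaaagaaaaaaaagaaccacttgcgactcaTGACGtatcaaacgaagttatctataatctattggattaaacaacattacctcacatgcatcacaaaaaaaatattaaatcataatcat
GSTF9, lower, chr2:13138632-13138881, plus strand: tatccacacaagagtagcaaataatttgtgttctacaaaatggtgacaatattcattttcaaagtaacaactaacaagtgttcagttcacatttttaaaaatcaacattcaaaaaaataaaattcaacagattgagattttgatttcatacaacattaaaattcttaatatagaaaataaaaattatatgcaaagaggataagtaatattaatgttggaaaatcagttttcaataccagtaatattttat
GSTF10, lower, chr2:13141040-13141289, plus strand: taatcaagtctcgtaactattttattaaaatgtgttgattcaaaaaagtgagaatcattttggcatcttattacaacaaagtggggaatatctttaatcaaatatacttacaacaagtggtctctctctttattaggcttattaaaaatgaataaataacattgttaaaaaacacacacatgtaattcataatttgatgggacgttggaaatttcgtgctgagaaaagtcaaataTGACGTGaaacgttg
GSTU1, lower, chr2:12632539-12632788, minus strand: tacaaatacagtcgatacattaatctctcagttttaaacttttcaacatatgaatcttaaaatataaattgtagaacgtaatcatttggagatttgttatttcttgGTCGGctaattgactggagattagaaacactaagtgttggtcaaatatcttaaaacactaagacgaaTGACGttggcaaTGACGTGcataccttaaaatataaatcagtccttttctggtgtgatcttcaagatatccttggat
GSTU6, higher in repeated cold alone, chr2:12621232-12621481, minus strand: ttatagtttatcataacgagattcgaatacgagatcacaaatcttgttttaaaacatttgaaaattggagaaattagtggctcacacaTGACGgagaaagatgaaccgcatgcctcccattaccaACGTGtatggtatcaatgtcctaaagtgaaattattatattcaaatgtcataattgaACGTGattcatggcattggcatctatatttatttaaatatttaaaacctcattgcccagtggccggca

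GSTU17 holds 1 G-box, which begins 106 bases before its start, and GSTU27 holds 1 TGACG. GSTF9 holds none of these letters in this window, while its tandem neighbour GSTF10 holds TGACGTG, beginning 15 bases before its start. GSTU1 holds TGACG at 2 places, 1 of them as TGACGTG, and CCGAC once on the other strand. GSTU6 holds TGACG once and ACGTG at 2 places. Over all members, 15 of 42 windows (35.7%) held TGACG, against 18.9% of 25120 windows of all genes. ACGTG was in 15 of 42 (35.7%), against 23.2% of all windows, and CCGAC in 6 of 42 (14.3%), against 12.2%. The evening element AAAATATCT was in 0 of 42, against 2.39%. Among the 5 members higher in both comparisons with control, TGACG was in 3, ACGTG in 3 and CCGAC in 0. Among the 11 members lower in both, TGACG was in 4, ACGTG in 5 and CCGAC in 3. The counts include windows that hold exons of other genes. Such windows were those of GSTF8, GSTU5 and GSTU28 among the higher members, and of GSTL3 and GSTU18 among the lower. All these counts are matches of letters and were not tested against the response.

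**Figure D1:**
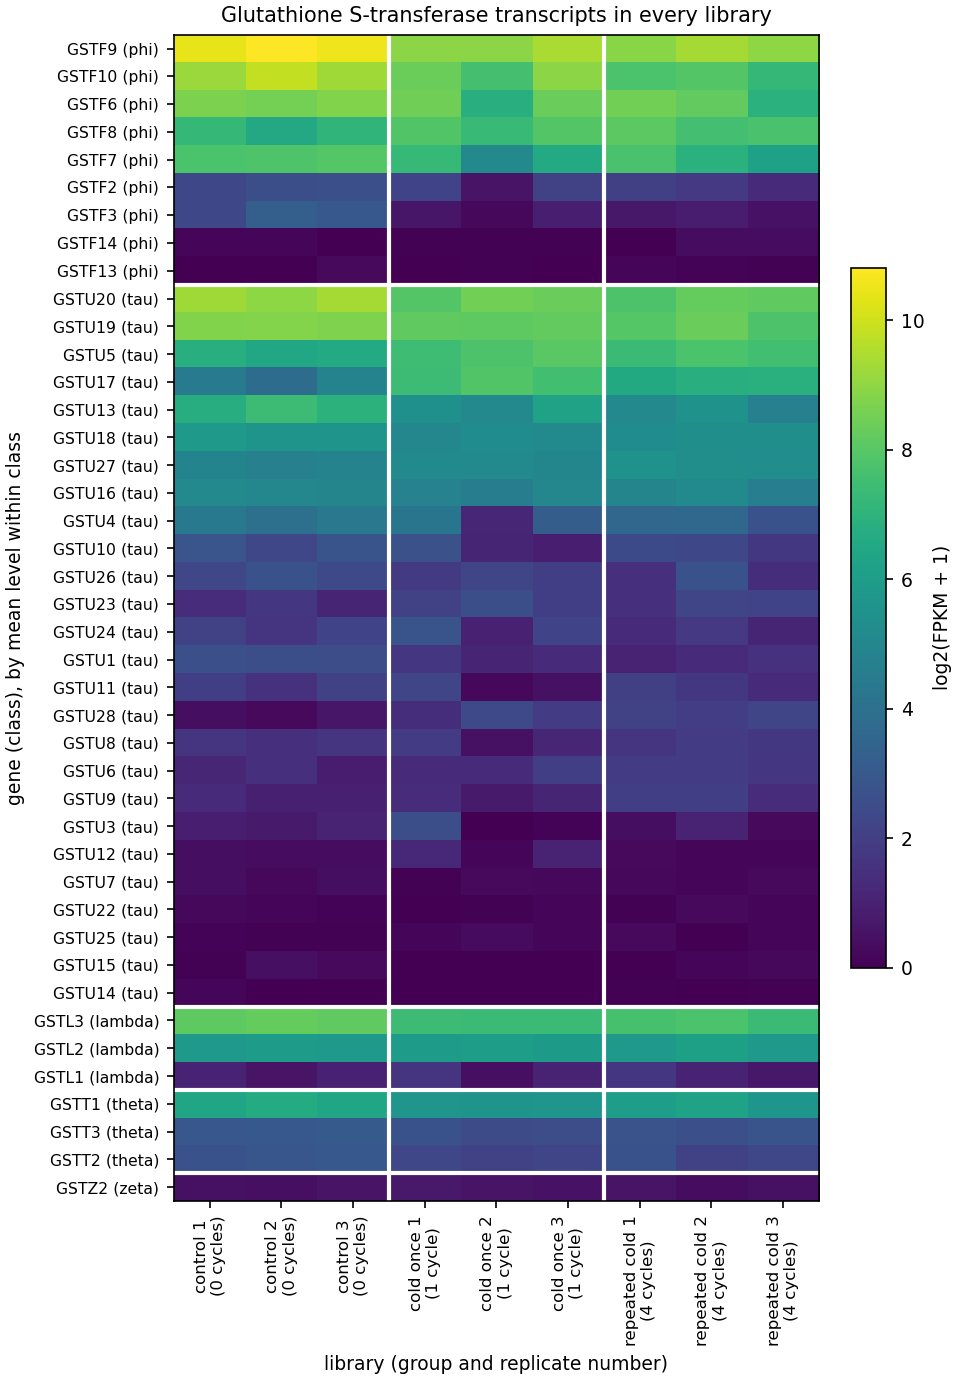
Heat map of log2(FPKM + 1) for the 42 members (vertical axis, by class and mean level) in the 9 libraries (horizontal axis, by group, with 0, 1 and 4 cycles). The brightest line is GSTF9, between 1339 and 1790 FPKM in control and between 467 and 684 FPKM in the cold libraries, and the column of cold once replicate 2 is darker than its neighbours for several phi and tau genes.

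A few phi and tau genes made up most of the family's RNA. The 5 members with the highest mean level over all libraries were GSTF9 (876 FPKM), GSTF10 (414 FPKM), GSTU20 (390 FPKM), GSTU19 (328 FPKM) and GSTF6 (308 FPKM). They held 75.05% of the summed member FPKM in control, 59.6% in cold once and 56.8% in repeated cold. The whole family summed to 4888 ± 331 FPKM in control, 2938 ± 434 in cold once and 2684 ± 364 in repeated cold (SD, n = 3 each). The lowest control sum, 4586 FPKM, lay above the highest sum in either cold group, 3386 FPKM. Phi genes summed to 3011 ± 356 FPKM in control, 1461 ± 433 in cold once and 1349 ± 266 in repeated cold. Tau genes stood at 1427 ± 58.8, 1192 ± 112 and 1006 ± 129 FPKM in the same order of cycles, lambda genes at 349 ± 19.2, 227 ± 3.85 and 256 ± 31.9 FPKM, and theta genes at 101 ± 9.35, 57.2 ± 1.28 and 72.6 ± 11.6 FPKM. In FPKM without further scaling, the libraries of neither cold group overlapped those of control in the phi, tau, lambda and theta classes. For tau, the lowest control sum was 1359 FPKM and the highest cold-once sum 1267 FPKM. That gap is smaller than the difference in median-of-ratios factors, 1.06 to 1.11 in control and 0.944 to 0.954 in cold once. The separation of tau sums in cold once is therefore not read as a change of the class.

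After 1 cycle, 6 tested members rose and 13 fell against control, and 14 of the 33 were not called. The called share was 57.6%, beside 52.3% of all genes tested. By direction, 6 of 33 members were higher beside 18.7% of all genes, and 13 of 33 were lower beside 33.6%. The members' median log2 change was -0.53, beside -0.16 for all genes. With median-of-ratios scaling these medians were -0.35 and -0.01, and the lower share of calls was 64.7% for members, against 68.4% without it, and 49.4% for all genes, against 64.3%. After 4 cycles, 7 members rose and 11 fell against control, and 15 were not called. The called share was 54.5% beside 39.5% of all genes, with 14.6% of all genes higher and 24.9% lower. The median log2 change was -0.48 for members and -0.10 for all genes. Median-of-ratios scaling gave -0.38 and 0.01, with a lower share of calls of 53.3% for members, against 61.1% without it, and 49.2% for all genes, against 63.0%. Both comparisons use the same 3 control libraries. By class, 4 of 7 phi, 5 of 20 tau, 1 of 3 lambda and 3 of 3 theta genes were lower after 1 cycle, and 3, 5, 1 and 2 of them after 4 cycles. In tau, 5 of 20 genes rose after 1 cycle and 6 of 20 after 4, and 1 of 7 phi genes was higher in both. Tau holds 20 of the 33 tested members, so its larger number of rises goes with its size.

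**Figure D2:**
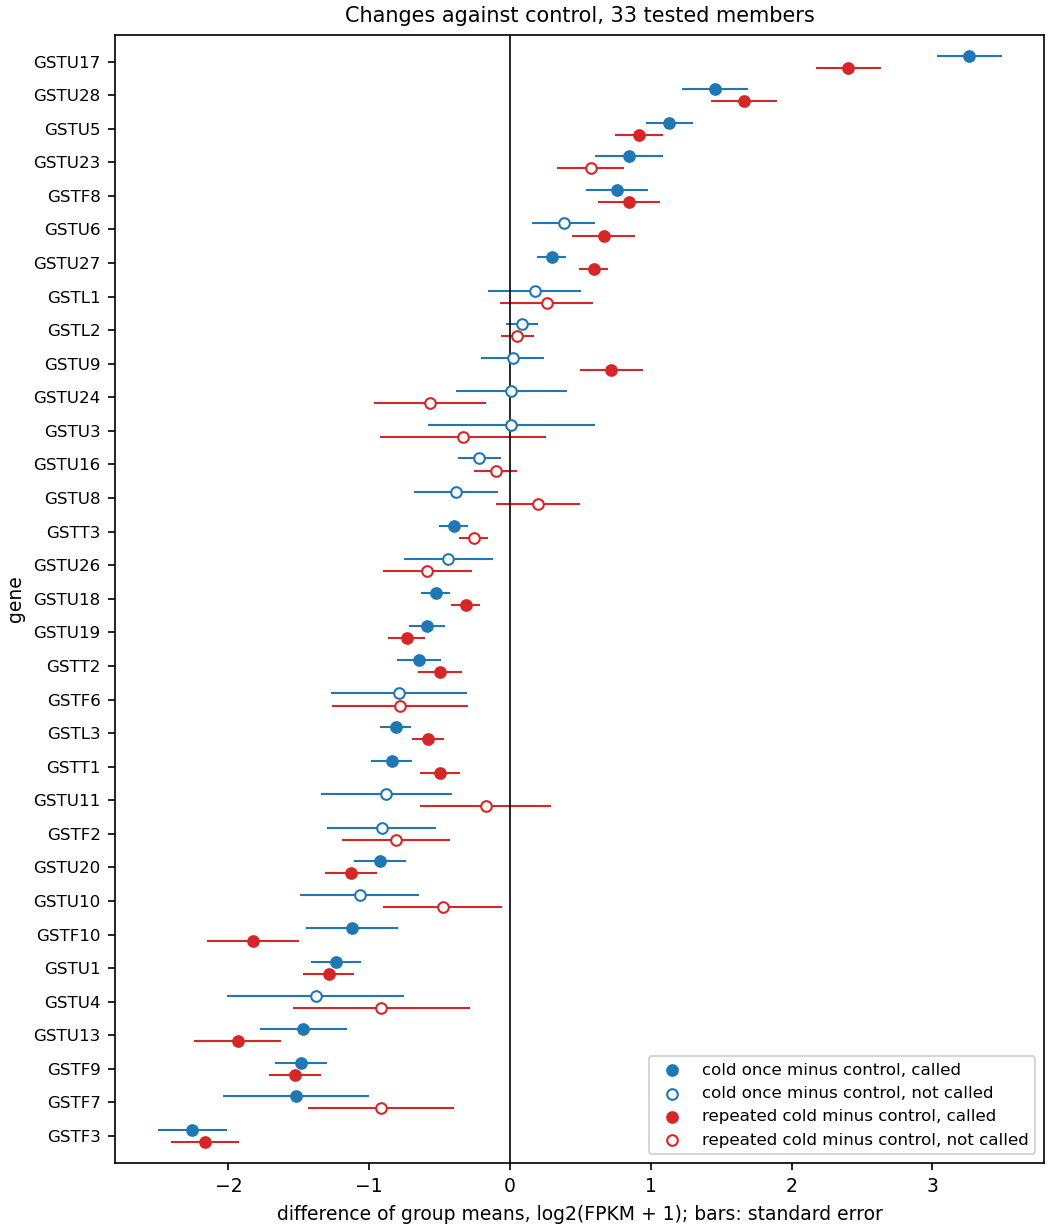
Log2 change against control (horizontal axis, difference of group means of log2(FPKM + 1), bars are standard errors) for the 33 tested members (vertical axis), with cold once in blue and repeated cold in red. Filled points were called and open points were not, and GSTU17 stands furthest to the right while GSTF3 stands furthest to the left.

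Among the members that rose, GSTU17 (AT1G10370, chr1:3396883-3398358, minus strand) had the largest change on the log2(FPKM + 1) scale. It is also named ERD9, early responsive to dehydration, and is known from work on drought and abscisic acid. It stood at 20.2, 13.1 and 27.2 FPKM in the control libraries, 171, 231 and 184 FPKM in cold once, and 93.7, 113 and 114 FPKM in repeated cold. No library of one group overlapped another group. The mean was 9.70-fold higher in cold once than in control, a log2 change of 3.26 ± 0.23 (limma, adjusted p = 9.45e-06, n = 3 per group). In repeated cold it was 5.30-fold higher than in control, 2.40 ± 0.23 (limma, adjusted p = 8.3e-05).

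GSTU18, the next gene on the same strand, overlaps GSTU17 by 71 bases and shares 81.6% of aligned coding bases with it. It went the other way: 55.0, 47.1 and 46.7 FPKM in the controls, 31.4, 36.9 and 33.9 in cold once, and 36.9, 41.3 and 40.6 in repeated cold. Its log2 change was -0.53 ± 0.10 in cold once and -0.32 ± 0.10 in repeated cold, the second not called under 11 of 21 alternatives (adjusted p up to 0.209). The ratio of GSTU17 to GSTU18 within a library was 0.277 to 0.583 in control, 5.44 to 6.26 in cold once and 2.54 to 2.80 in repeated cold. So GSTU17 was the lower of the pair in each control library and the higher in each cold library.

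GSTU5 (AT2G29450), a tau gene in the run of 6 on chromosome 2, rose next most among the members with a mean of at least 5 FPKM in the higher group. It had 113, 87.4 and 95.4 FPKM in the controls, 174, 222 and 262 in cold once, and 163, 211 and 186 in repeated cold. Both cold groups lay wholly above control. Its log2 change was 1.13 ± 0.17 in cold once (limma, adjusted p = 0.000559) and 0.92 ± 0.17 in repeated cold (limma, adjusted p = 0.0027).

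GSTF8 (AT2G47730), a phi gene widely used as a marker of early stress and hydrogen peroxide responses, rose in both cold groups. It had 146, 92.2 and 134 FPKM in the controls, 232, 161 and 238 in cold once, and 270, 188 and 208 in repeated cold. The nearest libraries were control replicate 1 and cold once replicate 2. The log2 change was 0.76 ± 0.22 in cold once, which lost its call under 4 alternatives (adjusted p up to 0.0917), and 0.85 ± 0.22 in repeated cold, called under all 21.

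GSTU27 (AT3G43800) rose least of the 4. Control libraries had 28.5, 25.03 and 27.5 FPKM, cold-once libraries 35.1, 34.9 and 30.3, and repeated-cold libraries 45.3, 39.8 and 38.9. The groups did not overlap. The log2 change was 0.30 ± 0.10 in cold once, not called under 6 of 21 alternatives (adjusted p up to 0.117), and 0.59 ± 0.10 in repeated cold.

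The other rises were of genes with few reads. GSTU28 had 0.354 ± 0.186 FPKM in control, 2.84 ± 1.31 in cold once and 3.27 ± 0.443 in repeated cold (SD, n = 3 each), and its log2 change was 1.46 ± 0.23 and 1.66 ± 0.23. Its ratio of means was 8.02-fold in cold once and 9.24-fold in repeated cold, the second above that of GSTU17. GSTU23 was called in cold once alone (0.84 ± 0.24, against 0.57 ± 0.24 in repeated cold, adjusted p = 0.0865). GSTU6 was called in repeated cold alone (0.67 ± 0.22, against 0.38 ± 0.22 in cold once), as was GSTU9 (0.72 ± 0.22, against 0.02 ± 0.22). For none of these 3 was the difference between repeated cold and cold once itself called. GSTU6 lost its call in repeated cold under 8 of 20 alternatives (adjusted p up to 0.137). GSTU9 lost it without control replicate 2 or 3 and without repeated cold replicate 1 or 2 (up to 0.0937), and GSTU23 lost its call in cold once without control replicate 3 or cold once replicate 2 (up to 0.0645).

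**Figure D3:**
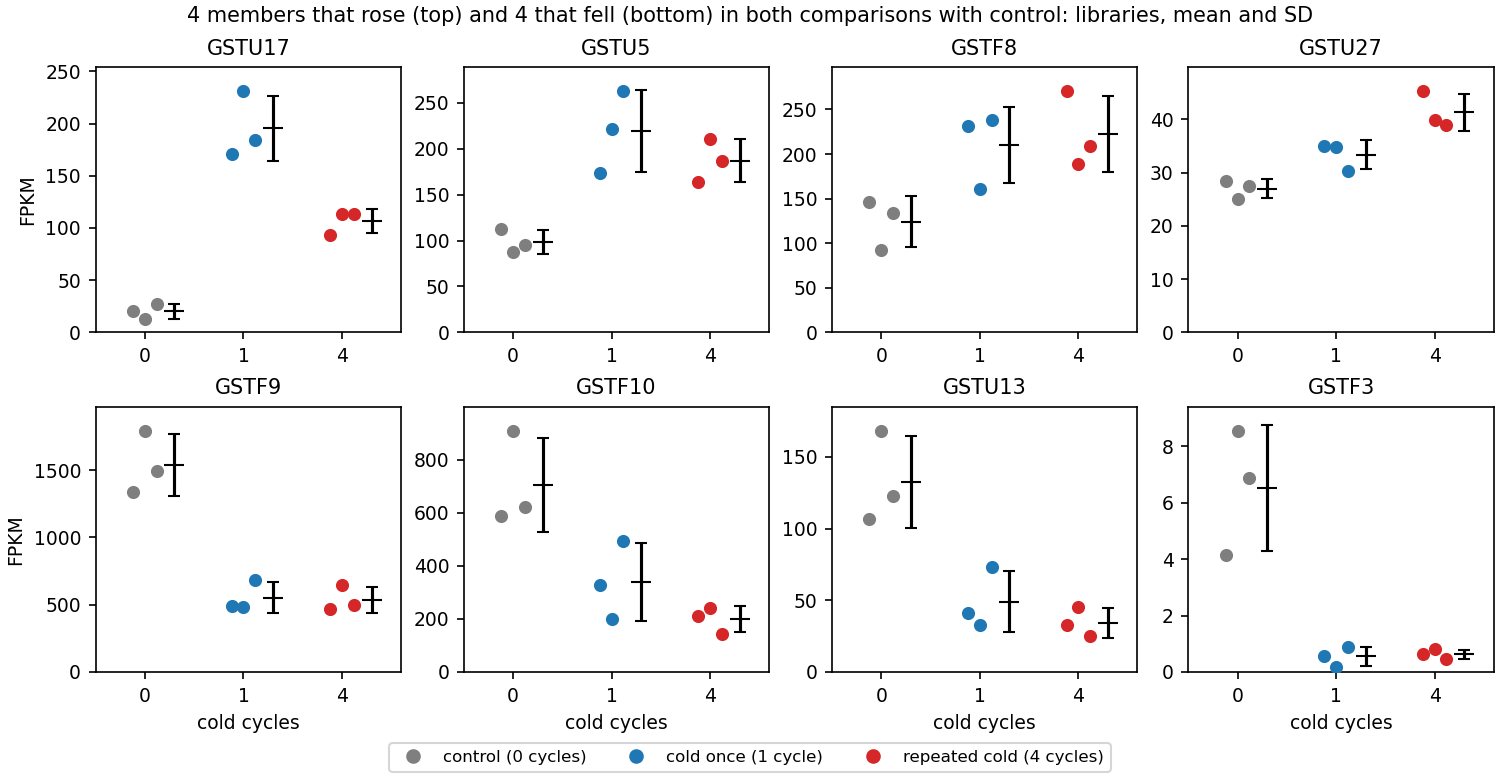
FPKM in each library (points), with the mean and SD of 3 libraries (bars), by number of cold cycles (0, 1 and 4), for 4 members that rose and 4 that fell in both comparisons with control; each panel's axis begins at 0. GSTU17 averaged 20.2, 196 and 107 FPKM and GSTF9 averaged 1540, 552 and 535 FPKM at 0, 1 and 4 cycles.

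The falls included the family's most abundant genes. GSTF9 (AT2G30860, chr2:13138882-13140392, plus strand), a phi gene with transferase and peroxidase activity, had 1339, 1790 and 1491 FPKM in the controls, 489, 485 and 684 in cold once, and 467, 644 and 495 in repeated cold. All 6 cold libraries lay below all 3 controls. Its level was 2.79-fold lower in cold once (-1.49 ± 0.18, limma, adjusted p = 0.0002) and 2.88-fold lower in repeated cold (-1.53 ± 0.18, limma, adjusted p = 0.000282). On its own it held 18.8% of the family's FPKM in cold once and 19.9% in repeated cold, against 31.5% in control.

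GSTF10 (AT2G30870), also named ERD13, lies next to GSTF9 and shares 77.6% of aligned coding bases with it. It had 586, 908 and 620 FPKM in the controls, 327, 198 and 493 in cold once, and 212, 240 and 145 in repeated cold. Groups did not overlap control, and the cold-once libraries spread over more than the repeated-cold ones. The log2 change was -1.12 ± 0.33 in cold once and -1.82 ± 0.33 in repeated cold. The first lost its call without control replicate 2 (adjusted p = 0.0612).

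GSTF3 (AT2G02930) had the largest fall on the log2 scale, from a low level. Control libraries had 4.14, 8.53 and 6.87 FPKM, cold-once libraries 0.569, 0.187 and 0.893, and repeated-cold libraries 0.625, 0.798 and 0.460. The fewest reads behind one of these values were 4. Means were 11.9-fold lower in cold once (-2.26 ± 0.24, limma, adjusted p = 9.68e-05) and 10.4-fold lower in repeated cold (-2.17 ± 0.24). GSTF2, a binder of camalexin and flavonoids with 94.5% of aligned coding bases in common with GSTF3, was not called: 4.77 ± 0.544 FPKM in control, 2.41 ± 1.67 in cold once and 2.36 ± 0.863 in repeated cold. GSTF2 lies for 1442 of its 1691 bases over TOC159 on the other strand, and strandedness of the counting is not stated in the sources used here, so its level is uncertain.

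The pair GSTF6 and GSTF7, with 94.3% of aligned coding bases in common and 10.04% to 10.3% of their 50-base runs identical, differed mostly between libraries. GSTF6, which acts in camalexin synthesis, had 406, 370 and 432 FPKM in the controls, 353, 110 and 322 in cold once, and 363, 292 and 120 in repeated cold. Its log2 change was -0.79 ± 0.48 in cold once and -0.78 ± 0.48 in repeated cold, neither called, although every cold library lay below every control. GSTF7 had 213, 226 and 245 FPKM in the controls, 152, 33.04 and 96.6 in cold once, and 205, 117 and 72.3 in repeated cold. It was called in cold once (-1.52 ± 0.52, limma, adjusted p = 0.0334) but not under 8 of 21 alternatives, and was not called in repeated cold (-0.92 ± 0.52). Reads of identical stretches could be assigned to either gene.

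Among tau genes, GSTU13 (AT1G27130), which takes part in the indole glucosinolate pathway, fell most on the log2(FPKM + 1) scale. It had 107, 168 and 122 FPKM in the controls, 41.3, 32.9 and 72.9 in cold once, and 32.5, 45.2 and 24.96 in repeated cold. Each cold library lay below each control. The log2 change was -1.47 ± 0.31 in cold once and -1.94 ± 0.31 in repeated cold.

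GSTU20 and GSTU19 are adjacent and were the most abundant tau genes. GSTU20, known as FIP1 and a partner of the jasmonate-conjugating enzyme JAR1, had 614, 502 and 649 FPKM in the controls, 244, 365 and 326 in cold once, and 219, 304 and 284 in repeated cold. GSTU19, a main safener-induced transferase, had 438, 444 and 418 FPKM in the controls, 286, 281 and 296 in cold once, and 247, 319 and 223 in repeated cold. Neither gene's cold libraries overlapped control. Log2 changes were -0.93 ± 0.18 and -1.13 ± 0.18 for GSTU20, and -0.59 ± 0.13 and -0.73 ± 0.13 for GSTU19, after 1 and 4 cycles.

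GSTU1 fell at a low level, with 5.31, 5.01 and 4.88 FPKM in the controls, 2.29, 1.15 and 1.42 in cold once, and 1.085, 1.51 and 1.92 in repeated cold. The groups did not overlap control, and the log2 change was -1.23 ± 0.18 and -1.29 ± 0.18. Its means were 3.13-fold lower in cold once, against 2.70-fold for GSTU13, and 3.37-fold lower in repeated cold.

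Outside the tau and phi classes, 3 lambda and 3 theta genes were tested, and none was called higher. Of all genes, 18.7% were higher after 1 cycle and 14.6% after 4, so with so few genes this is not read as a trait of these classes. GSTL3 (AT5G02790), the main lambda gene, had 276, 308 and 285 FPKM in the controls, 167, 162 and 164 in cold once, and 203, 214 and 165 in repeated cold. Its log2 change was -0.81 ± 0.11 in cold once and -0.58 ± 0.11 in repeated cold. GSTL2 averaged 58.2 ± 3.46, 61.9 ± 4.28 and 60.8 ± 8.21 FPKM at 0, 1 and 4 cycles, and its log2 changes of 0.09 ± 0.11 and 0.05 ± 0.11 were not called.

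GSTT1 (AT5G41210), a peroxisomal theta enzyme, had 81.4, 98.3 and 84.2 FPKM in the controls, 48.5, 47.7 and 49.3 in cold once, and 63.6, 74.4 and 50.1 in repeated cold. The log2 change was -0.84 ± 0.14 in cold once and -0.50 ± 0.14 in repeated cold, the second not called under 5 alternatives (adjusted p up to 0.0876). Its run neighbours GSTT2 (-0.64 ± 0.16 and -0.50 ± 0.16) and GSTT3 (-0.40 ± 0.10 and -0.26 ± 0.10) were lower too, except that GSTT3 was not called in repeated cold. GSTT3 was also not called in cold once under either other scaling (adjusted p up to 0.197), and GSTT2 lost its call in repeated cold under 9 alternatives. GSTT2 and GSTT3 share 91.0% of aligned coding bases, and 4.85% to 7.20% of the 50-base runs of the 3 theta genes are not unique.

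Neighbours in a tandem run did not always change alike. The run of 6 tau genes on chromosome 2 (chr2:12617936-12632538) holds GSTU7, GSTU6, GSTU5, GSTU4, GSTU3 and GSTU1. GSTU5 rose and GSTU1 fell in both comparisons with control, GSTU6 rose in repeated cold, GSTU3 and GSTU4 were not called, and GSTU7 was not tested. GSTU1 and GSTU6 share 75.7% of aligned coding bases. The ratio of GSTU6 to GSTU1 was 0.167 to 0.351 in control, 0.650 to 2.15 in cold once and 1.17 to 2.53 in repeated cold. In the run of 4 on chromosome 1 (chr1:29467412-29488007), GSTU20 and GSTU19 fell, GSTU23 rose in cold once, and GSTU22 was not tested.

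**Figure D4:**
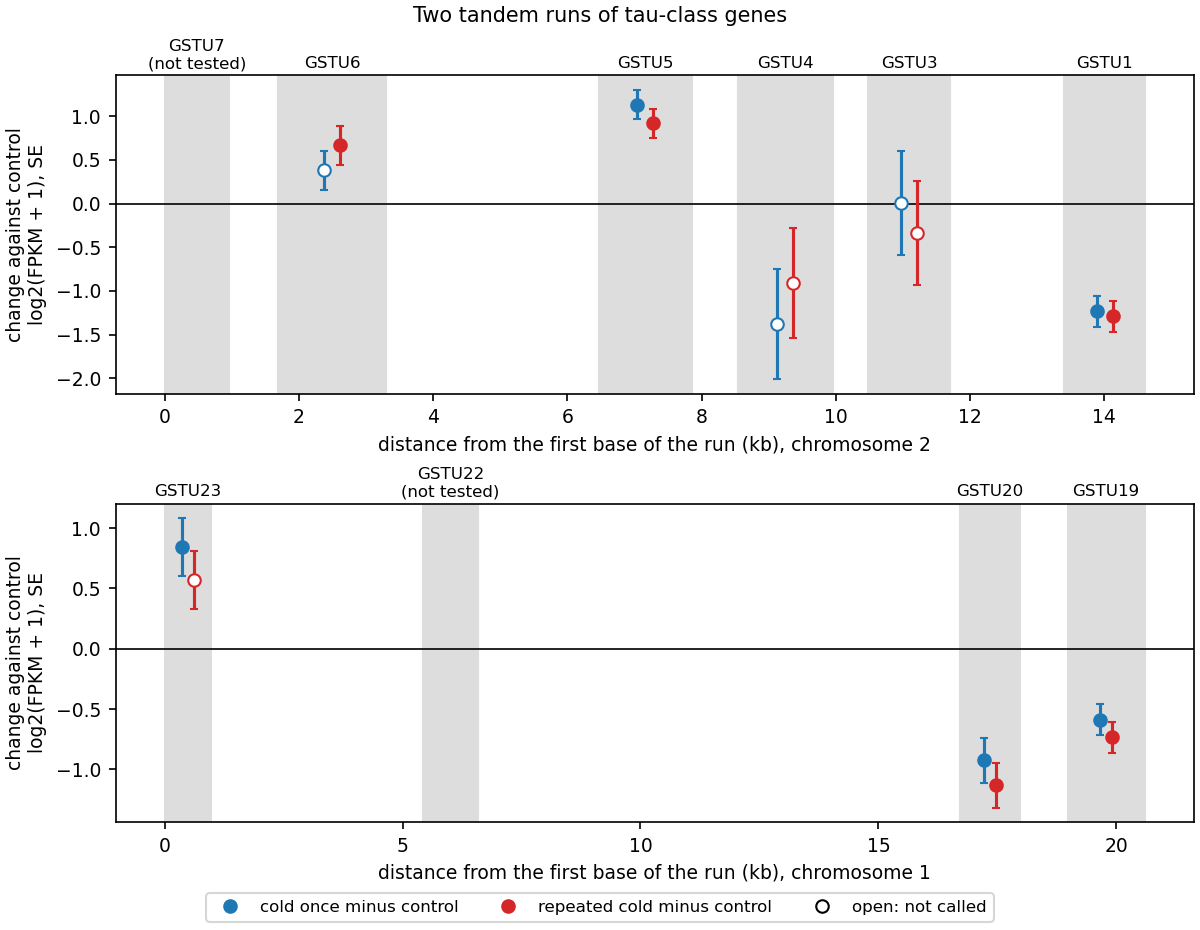
Log2 change against control (vertical axis, difference of group means of log2(FPKM + 1), bars are standard errors) along 2 tandem runs of tau genes, by distance in kb from the first base of the run (horizontal axis). Grey bands are the genes, filled points were called and open points were not; in the upper run GSTU5 lies above 0 at 1.13 and 0.92 and GSTU1 below it at -1.23 and -1.29.

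The comparison of repeated cold with cold once sets 4 cycles at day 4 against 1 cycle at day 1, so the number of cycles, day and plant age cannot be told apart here either. No member was called (0 of 33 by limma), beside 1.27% of all genes, 226 of 17740, of which 0.738% were higher and 0.536% lower. The members' median log2 change was 0.09, beside 0.06 for all genes. At an unadjusted p under 0.05 there were 4 of 33 members, beside 3513 of 17740 genes, which is a larger share. GSTU17 averaged 107 ± 11.4 FPKM in repeated cold and 196 ± 31.3 in cold once (SD, n = 3 each), and the libraries did not overlap. That was a log2 change of -0.86 ± 0.23 (limma, unadjusted 0.00461, adjusted p = 0.0954), and the alternatives gave an adjusted p between 0.0511 and 0.245.

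The other 3 were higher in repeated cold, also without overlap of libraries. GSTU9 had 3.07, 2.97 and 1.59 FPKM in repeated cold and 1.59, 0.710 and 1.19 in cold once, with the closest pair of libraries at 1.587 and 1.586 FPKM (0.70 ± 0.22, limma, adjusted p = 0.134). GSTU27 differed by 0.30 ± 0.10 (adjusted p = 0.161) and GSTT1 by 0.35 ± 0.14 (adjusted p = 0.222). Under 1 alternative a member was called: GSTU11, higher by 1.34 (adjusted p = 0.048) without cold once replicate 1. In that library GSTU11 had 3.78 FPKM, against 0.180 and 0.407 in the other cold-once libraries. Voom on recovered whole reads called 0 members and 293 genes.

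Single libraries stood apart for many members. Cold once replicate 2 was the lowest of its group for 23 of 33 members (69.7%), beside 36.7% of all genes tested. In that library 10 members (30.3%, beside 2.58% of all genes) stood at less than 0.5 times the next library: GSTL1, GSTF2, GSTF3, GSTF6, GSTF7, GSTU3, GSTU4, GSTU8, GSTU11 and GSTU24. Of these, 8 were not called against control in either comparison. Repeated cold replicate 3 was the lowest of its group for 21 members (63.6%), beside 31.0% of all genes. The lowest library was cold once replicate 2 and repeated cold replicate 3 for the same 17 members (51.5%), beside 13.3% of all genes. The members' median in cold once replicate 2 was 0.39 below the mean of the other 2 libraries on the log2 scale, while that of all genes was 0.00 above it.

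Some tau genes spread widely within a group. GSTU4 had 19.9, 14.7 and 19.2 FPKM in the controls, 17.3, 1.24 and 8.14 in cold once, and 10.8, 11.7 and 5.603 in repeated cold. GSTU3 had 5.08, 0 and 0.0917 FPKM in cold once, where 0 allows up to 0.146 FPKM for a gene of 1 kb, against 0.698 to 1.06 in control. GSTU24 had 6.06, 1.02 and 3.52 FPKM in cold once, against 2.20 to 3.50 in control. For these genes the high library of the group was cold once replicate 1. Without it, 19 members were lower than control after 1 cycle, in place of 13, and GSTF2, GSTU3, GSTU4, GSTU8, GSTU10 and GSTU11 were the added ones. Without cold once replicate 2 and repeated cold replicate 3 together, 4 members were higher and 13 lower in cold once than in control, and 6 higher and 9 lower in repeated cold. Counts of all genes are not set beside these, so a shift of the members cannot be told from a shift of calls in general.

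**Figure D5:**
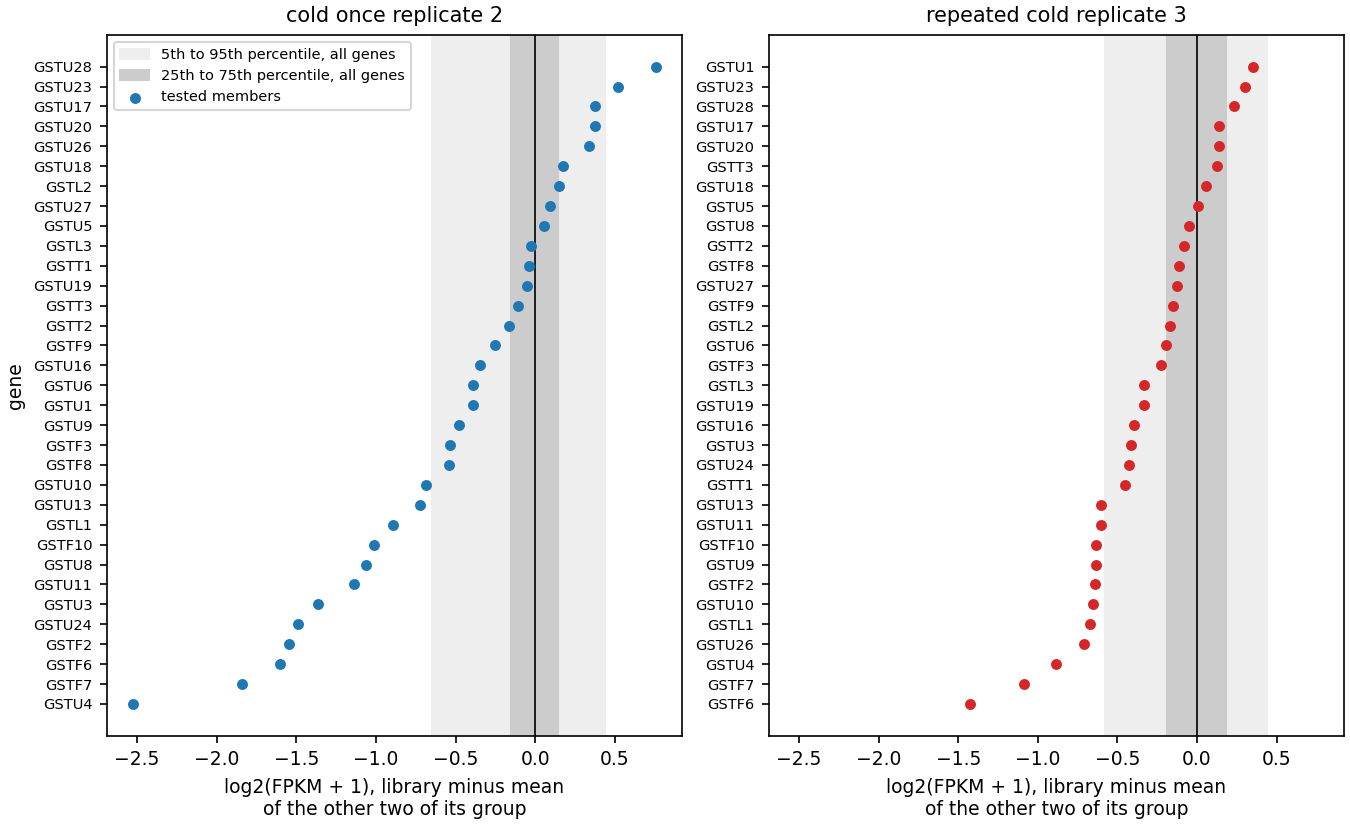
Difference between 1 library and the mean of the other 2 of its group on the log2(FPKM + 1) scale (horizontal axis) for each of the 33 tested members (vertical axis), for cold once replicate 2 on the left and repeated cold replicate 3 on the right. Grey bands run from the 5th to the 95th and from the 25th to the 75th percentile of all genes tested, and the members' medians lie at -0.39 and -0.33, left of the medians of all genes at 0.00 and 0.01.

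The other tested members were not called against control. GSTU10 (-1.07 ± 0.42 in cold once, adjusted p = 0.0598) lies over AT1G74580 for 279 bases on the other strand. GSTU26 changed by -0.44 ± 0.32 in cold once and -0.59 ± 0.32 in repeated cold, where replicate 2 had 5.69 FPKM and the others 1.84 and 1.67. Without that library it was called lower in repeated cold (-1.01, limma, adjusted p = 0.00276) and in cold once (adjusted p = 0.0371), and in cold once also in the fit to 2 groups (adjusted p = 0.0499). GSTU16 changed by -0.22 ± 0.15 and -0.10 ± 0.15, GSTU8 by -0.38 ± 0.30 and 0.20 ± 0.30, and GSTL1 by 0.18 ± 0.33 and 0.26 ± 0.33, each in cold once and then repeated cold. GSTU4 changed by -1.38 ± 0.63 and -0.91 ± 0.63, GSTU11 by -0.88 ± 0.47 and -0.17 ± 0.47, GSTU24 by 0.01 ± 0.40 and -0.57 ± 0.40, GSTU3 by 0.01 ± 0.59 and -0.33 ± 0.59, and GSTF2 by -0.91 ± 0.39 and -0.81 ± 0.39. Without cold once replicate 2, GSTF2 and GSTU4 were called lower in repeated cold (limma, adjusted p = 0.0114 and 0.0465), and without repeated cold replicate 1, GSTU23 was called higher there (adjusted p = 0.0207). Of the 33 tested members, 5 were called higher and 11 lower in each comparison with control, which share the control libraries. A further 3 were called higher and 2 lower in 1 of the comparisons alone, and 12 were called in neither. Of all genes tested, 52.3% were called in cold once and 39.5% in repeated cold. How many of them were called in both was not counted, so these overlaps are not read as a trait of the family.

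Genes of glutathione metabolism and transport, of sulfate assimilation, and TGA factors with detoxification partners were counted on 5 lists of 61 genes. Of these, 58 were tested (GGT2, GPX4 and PCS2 were not). After 1 cycle 9 rose and 34 fell against control, and after 4 cycles 7 rose and 29 fell. The list of TGA factors and detoxification partners held 13 of the falls after 1 cycle and 7 after 4. Over all genes tested the shares were 18.7% higher and 33.6% lower after 1 cycle, and 14.6% and 24.9% after 4. Of 8 genes of glutathione synthesis and breakdown, 5 fell after 1 cycle and 4 after 4, and none rose, beside 33.6% and 24.9% of all genes lower and 18.7% and 14.6% higher. GSH2, glutathione synthetase, averaged 36.5 ± 10.6 FPKM in cold once and 28.8 ± 2.28 in repeated cold, against 82.2 ± 4.74 in control. GGT4 (GGT3 in the table), which breaks down glutathione conjugates in the vacuole, averaged 5.35 ± 1.67 FPKM in cold once and 8.43 ± 0.895 in repeated cold, against 27.8 ± 2.63 in control. GSH1, which makes the first intermediate of glutathione, fell by 0.66 on the log2 scale in repeated cold.

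Of 14 genes of glutathione reduction and peroxidases, 3 rose and 8 fell in either comparison with control, a called share of 78.6% beside 52.3% of all genes after 1 cycle and 39.5% after 4. The 3 rises were both glutathione reductases, which return oxidised glutathione to its thiol form, and GPX7. GR1 averaged 174 ± 12.8 FPKM in cold once and 142 ± 10.03 in repeated cold, against 59.5 ± 10.5 in control. GR2, the plastid and mitochondrial enzyme, averaged 165 ± 3.25 FPKM in cold once and 153 ± 7.36 in repeated cold, against 95.4 ± 5.23 in control. GPX7, a plastid peroxidase, changed by 1.72 ± 0.18 and 1.55 ± 0.18 on the log2 scale, and GPX3 by -0.95 ± 0.12 in cold once. Of 9 transport genes, 3 rose and 2 fell after 1 cycle, and 1 rose and 1 fell after 4. That was a called share of 55.6% after 1 cycle, near the 52.3% of all genes, and of 22.2% after 4, below the 39.5% of all genes. ABCC4, an ABC transporter, changed by 1.02 ± 0.30 and 1.02 ± 0.30 and CLT3, a plastid thiol transporter, by -1.02 ± 0.12 and -0.83 ± 0.12.

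Of 12 genes that carry sulfate to cysteine, 3 rose and 6 fell after 1 cycle, and 3 rose and 9 fell after 4, a called share of 75% and 100% beside 52.3% and 39.5% of all genes. APR2, an adenylylsulfate reductase, averaged 91.3 ± 17.0 FPKM in cold once and 80.6 ± 8.49 in repeated cold, against 24.6 ± 2.66 in control. APS2, an ATP sulfurylase, rose too (1.36 ± 0.12 and 1.12 ± 0.12), while APS4 fell (-1.21 ± 0.13 and -1.07 ± 0.13). SERAT2;1, a serine acetyltransferase (SAT1 in the table), was the one gene of these lists called between repeated cold and cold once, with 25.3 ± 0.909 FPKM in repeated cold and 12.5 ± 1.60 in cold once (0.97 ± 0.10, limma, adjusted p = 0.0111). Control had 41.7 ± 1.34 FPKM, so the gene was lower than control in both, by -0.70 ± 0.10 in repeated cold and -1.67 ± 0.10 in cold once. Of 15 TGA factors and detoxification partners, 13 fell after 1 cycle and 7 after 4, and none rose, beside 33.6% and 24.9% of all genes lower. TGA7 averaged 5.34 ± 0.817 FPKM in cold once and 6.33 ± 1.03 in repeated cold, against 18.7 ± 2.33 in control, and TGA3 averaged 12.9 ± 4.22 and 12.6 ± 2.41 FPKM, against 36.5 ± 2.54 in control. NAC032 (-0.91 ± 0.12 and -1.30 ± 0.12) and OPR2, an oxophytodienoate reductase (-0.73 ± 0.11 and -0.97 ± 0.11), were lower as well.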

How the data were processed

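Transcripts were measured by RNA-seq in 9 libraries, 3 in each group. Libraries were made with a SMARTER mRNA-Seq kit from 0.5 µg of Qiagen-extracted total RNA, per the labels' protocols. The deposited values are FPKM computed by the authors, 1 column per library. The submitters' processing notes list TopHat, Cufflinks and Cuffdiff, but neither versions nor what each did. The genome build and strandedness are not given in the sources used here, while gene ends equal those of RefSeq's TAIR10.1 for 25094 of 25099 loci (99.98%) and for all 42 members. Low values lie on steps of 1 read, and whole reads were recovered for 25320 of 25320 genes (100%, tolerance 0.01 read). Depth per library is the size these steps imply. A value of 0 allows up to 3 reads, 0.14 to 0.167 FPKM for a gene of 1 kb, and this floor covers counting error only.

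FPKM was used without further scaling as log2(FPKM + 1), for genes with at least 1 FPKM in at least 3 libraries. A model with 1 mean per group was fitted with limma 3.58.1 in R 4.3.3 (variance trend on mean level, 3.21 prior degrees of freedom), with two-sided tests. Summaries and figures used matplotlib 3.10.9, scipy 1.17.1, pandas 2.3.3 and numpy 2.4.6 under Python 3.11.15. The procedure was tested on simulated reads with the same dispersion for every gene, the same changes in both cold groups and no library set apart. Such a test does not vouch for the calls on these data, where single libraries stood apart. As a count test, limma's voom on the recovered reads called 9011 genes between cold once and control, 6851 between repeated cold and control and 293 between repeated cold and cold once. Whether replicates came from separate cultures is not stated in the labels, and p-values therefore rest on a spread between samples that may be technical.

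Members and lists were chosen with earlier results of these data known. Values in every library are given for called members with a mean of at least 5 FPKM in the higher group, up to 8 rises and 8 falls per comparison, and for the 5 most abundant members. From each pathway list up to 4 genes per comparison with the smallest p are named. Members given for their spread between libraries, and GSTU18 and GSTF2 as near copies, were chosen after their values were seen. The upstream windows of 6 members are shown, chosen after their values were seen. In choosing these 6, windows of 250 bases that hold an exon of another gene were passed over. The motif counts passed over no window, neither of the 42 members nor of all genes. Alternatives were other pseudocounts, filters, scalings and variance settings, fits to 2 groups, a replicate block, voom, and leaving out libraries.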

Additional observations from a re-analysis of the deposited data

How the results depend on the processing

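No called change against control turned its direction under any of the 21 alternatives. Of the members called against control, 13 of 19 in cold once and 13 of 18 in repeated cold kept their call under every alternative in which they were tested. The others are given with their values beside each gene. Leaving out 1 library at a time gave 4 to 6 members higher and 11 to 19 lower in cold once than in control, and 5 to 7 higher and 8 to 13 lower in repeated cold. Counts of all genes against control under these alternatives are not given here, so the ranges are not particular to the members. With a filter of 5 FPKM, 4 members were higher in repeated cold, since GSTU6, GSTU9 and GSTU28 were no longer tested. Depth limits the genes near 1 FPKM.

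Between repeated cold and cold once, 131 genes were higher and 95 lower, 226 in all. The counts were 58 and 54 (112 in all) with no filter, 2 and 3 (5 in all) with the 2 groups alone, and 28 and 25 (53 in all) without cold once replicate 2 and repeated cold replicate 3 together, an alternative chosen after seeing the data. Median-of-ratios scaling gave 368 genes, 245 of them lower (66.6% of calls, against 42% without it), and quantile normalization 173 lower. A pseudocount of 5 gave 85 higher, and voom 196 lower. Leaving out 1 library at a time gave 12 to 136 higher and 5 to 85 lower genes, 17 to 212 in all, the fewest without cold once replicate 3, and 0 to 1 members higher. Of the pathway genes, 0 in place of 1 were higher with the 2 groups alone and without those libraries together, and 1 in place of 0 was lower under median-of-ratios scaling and under the replicate block. The cause of these shifts was not tested beyond the smaller numbers of samples or genes named.

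The main fit did not take replicate numbers as pairs, and the labels do not say whether they pair libraries. Deviations of same-numbered libraries from their group means correlated at -0.108 to 0.463 over genes. The 6 pairs of replicates 1 and 2 stood at 0.103 to 0.463 and the 3 of replicate 3 at -0.108 to 0.0358. Yet libraries matched best with their own number in 13 of 18 choices, a hint from the data and not from the design. With the replicate block, 473 genes were higher and 231 lower in repeated cold than in cold once, 704 in all, and 0 members were called there. Against control the block added GSTU10, lower in cold once (adjusted p = 0.0266), and GSTU23, higher in repeated cold (adjusted p = 0.0324), and GSTU6 lost its call in repeated cold.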
